A study of Mus musculus with 18 samples.

Results

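Endoplasmic reticulum chaperone and stress genes were followed in side population and main population cells sorted from mouse thyroid, with and without prior partial removal of the gland. The set of 32 genes was named by function: 13 chaperones and folding enzymes, 4 sensors and factors of the unfolded protein response, degradation genes, the Atf4 stress branch and 2 translocon subunits. A gene was read from the array probes that carry its symbol in the scanner files, using the brightest probe, and 30 genes were found this way among the 20455 genes tested. Sel1l and Ppp1r15a are listed under older names (Sel1h and Myd116), were matched by accession, and are counted outside the 30. Of the 30, 6 belong to degradation and 5 to the Atf4 branch.

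All cells came from thyroids of C57BL/6 mice, with both sexes given in the labels. Thyroids were digested with collagenase and dispase 1, the cells were kept in culture for 2 days, and they were stained with the DNA dye Hoechst, with or without verapamil, and sorted. The groups were side population cells after partial thyroidectomy (TSP, 6 arrays), main population cells after partial thyroidectomy (TMP, 3 arrays), side population cells without surgery (CSP, 6 arrays) and main population cells without surgery (CMP, 3 arrays). Side population cells are those that keep the dye out through membrane pumps, which verapamil blocks, and the main population is the rest of the sorted cells. The design text calls the replicates biological, without saying how many animals stand behind an array, so p-values measure the spread between these samples. Each Cy5-labelled sample was hybridised against the same Cy3-labelled RNA pool of mouse tissues, and every level below is a log2 ratio of sample over that pool, which says nothing about how one gene compares with another.

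The endoplasmic reticulum folds secreted and membrane proteins, and in the thyroid it folds thyroglobulin, the large precursor of thyroid hormone. When unfolded proteins build up, the sensors Ern1, Eif2ak3 and Atf6 raise the supply of chaperones, send misfolded proteins to the proteasome and slow translation. Ern1 splices the Xbp1 transcript and Eif2ak3 favours translation of Atf4, 2 steps that a gene expression array does not read.

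The arrays lay on 5 slides, and the arrays labelled TSP 1 and TSP 2 went against their label. Against main population arrays, their median correlation across genes was 0.948 (0.888 at the lowest and 0.962 at the highest). Against the other 10 arrays of the side population it was 0.695, while those 10 reached 0.874 among themselves and 0.680 against main population arrays. These correlations across genes are descriptions, since genes are not independent replicates. Results for TSP are given with and without these 2 arrays, and leaving them out was chosen with their profiles known. CSP 1, CSP 2, TSP 1 and TSP 2 shared slide 1, TMP 1 and CMP 1 slide 2, and CSP 3, CSP 4, TSP 3 and TSP 4 slide 3. On slide 4 lay CSP 5, CSP 6, TMP 2 and CMP 2, and on slide 5 TSP 5, TSP 6, TMP 3 and CMP 3. The share of spots clearly above the Cy5 background ran from 38.8% to 72% per array and was lowest on slides 1 and 5. Precision is limited by the number of arrays. On all 18 arrays 28 of the 30 genes were well above background; Ern1 was not on 6 arrays and Derl3 was not on 1 TSP array.

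**Figure D1:**
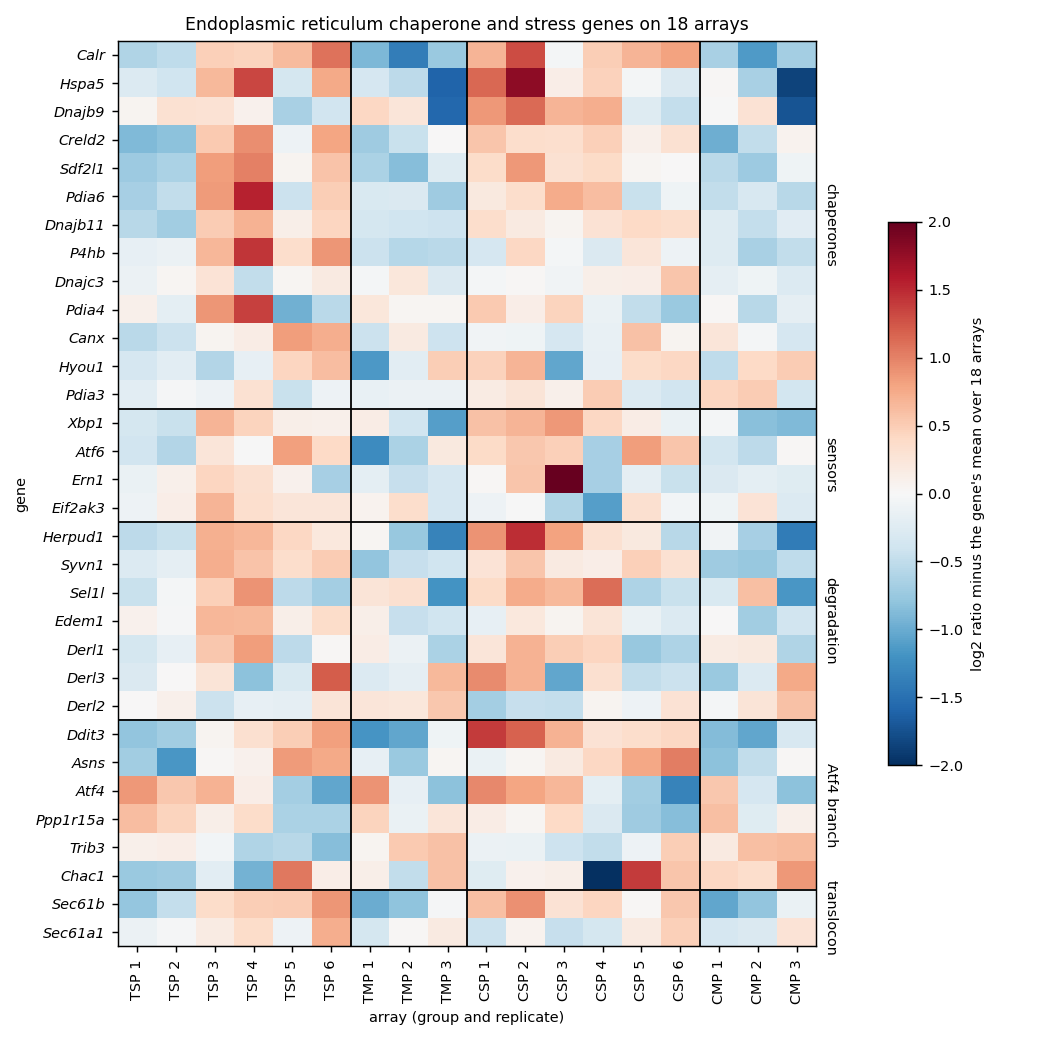
Log2 ratio of each gene (rows, grouped by role) on each of the 18 arrays (columns, TSP, TMP, CSP, CMP), centred on the gene's mean over the 18 arrays, with the colour scale limited at both ends. Calr, Syvn1, Ddit3 and Sec61b are higher on the CSP arrays and on TSP 3 to TSP 6 than on the main population arrays, and TSP 1 and TSP 2 look like the TMP and CMP arrays.

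The promoters of many of these genes share an element through which Atf6 and Xbp1 are known to raise transcription. Windows from 250 bases before to 50 after each gene start were taken from RefSeq (GRCm38.p6), which held 28 of the 32 genes, and searched on both strands. The ER stress response element (CCAAT and CCACG with any 9 bases between them) was present in 8 of the 28 (28.6%), against 37 of 27025 genes (0.137%). Its second form (ATTGG and CCACG with any 1 base between them) was present in Dnajb11 and Herpud1 (7.14%, against 0.0444% of genes). The short element TGACGTGG was in none of the 28, against 0.714% of genes, and the core of the Atf4 element (TGATGNAA) was in 4 of them (14.3%, against 4.51%). A match describes letters in this window and does not show binding. The genes were named for this response and the element is known from it, so the higher share is no independent result.

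The 8 genes with the first form are shown because they include Calr and Syvn1, which rose in the side population below (after surgery only without TSP 1 and TSP 2), and Hspa5. Capitals mark the 2 ends of the element, and each sequence is written 5′ to 3′ on the strand that holds the match.
Calr: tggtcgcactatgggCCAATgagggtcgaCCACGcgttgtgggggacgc
Hspa5: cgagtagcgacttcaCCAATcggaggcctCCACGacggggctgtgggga
Syvn1: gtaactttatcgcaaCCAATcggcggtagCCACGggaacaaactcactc
Creld2: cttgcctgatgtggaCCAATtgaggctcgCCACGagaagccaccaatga
Pdia6: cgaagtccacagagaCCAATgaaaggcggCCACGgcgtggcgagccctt
Dnajc3: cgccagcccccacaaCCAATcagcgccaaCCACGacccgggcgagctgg
Canx: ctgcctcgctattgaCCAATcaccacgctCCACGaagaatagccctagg
Derl3: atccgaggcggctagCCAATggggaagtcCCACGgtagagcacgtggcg
These windows lie at chr8:84847060-84847108 on the plus strand (Calr), chr2:34772010-34772058 plus (Hspa5), chr19:6046517-6046565 plus (Syvn1), chr15:88819505-88819553 minus (Creld2) and chr12:17266476-17266524 plus (Pdia6). Those of Dnajc3, Canx and Derl3 lie at chr14:118937812-118937860 plus, chr11:50325785-50325833 minus and chr10:75893227-75893275 minus. The match began 44 bases before the gene start in Syvn1 and 65 in Hspa5, the nearest of the 8, and 162 in Calr, the farthest.

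The second form is shown for Herpud1, which also held the Atf4 core. That core is shown for Asns, Chac1 and Herpud1, since genes with it went in different directions below. The matches of Dnajb11 (second form) and Trib3 (Atf4 core) lay past the gene start and are not shown. Capitals mark the letters of the motif.
Herpud1, second form: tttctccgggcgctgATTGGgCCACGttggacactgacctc
Herpud1, Atf4 core: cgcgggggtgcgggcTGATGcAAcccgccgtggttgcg
Asns, Atf4 core: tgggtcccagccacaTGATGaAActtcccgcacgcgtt
Chac1, Atf4 core: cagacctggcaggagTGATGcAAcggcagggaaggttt
The windows of Herpud1 lie at chr8:94386362-94386402 plus and chr8:94386302-94386339 minus, that of Asns at chr6:7693210-7693247 minus and that of Chac1 at chr2:119351034-119351071 minus. Herpud1 was the only one of the 28 genes that held both kinds of element.

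The comparison of CSP with CMP asks how the side population differs from the main population in thyroids without surgery. Calr, Syvn1, Ddit3, Sec61b and Xbp1 rose in CSP, and none of the 30 genes fell. These 5 of 30 are 16.7%, and over all genes 14.8% were called (7.62% higher and 7.2% lower; limma, Benjamini-Hochberg adjusted p under 0.05), so the share of calls was near the background. The difference was above 0 for 24 of the 30 with a median of 0.48 on the log2 scale, against 54.6% of all genes and a median of 0.06. The values of the groups did not overlap for 8 of the 30, all higher in CSP, against 11.1% of genes for that direction. Without TSP 1 and TSP 2, which enter the spread shared by the 4 groups, the same differences passed for Dnajb11, Sdf2l1, Creld2 and Herpud1 as well, 9 of 30 (30%), against 19.2% of all genes (10.2% higher and 9.01% lower). Single arrays moved the count, and the share over all genes fell as well. Without CMP 2 alone none of the 30 passed, against 2.59% of all genes. Without CSP 1, CSP 2 or CMP 1, 3 passed, against 11.9%, 12.2% and 5.49% of all genes.

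In thyroids after surgery, TSP against TMP leaned the same way with all arrays, but genes passed the test only once the 2 arrays were left out. With all arrays 0 of the 30 and 0% of all genes were called by limma, the smallest adjusted p among the 30 was 0.250, and 9 of the 30 and 2795 of all genes had an unadjusted p under 0.05. Without TSP 1 and TSP 2, 9 of the 30 were called, against 14.7% of all genes. Of these Calr, P4hb, Dnajb11, Sdf2l1, Creld2, Syvn1, Ddit3 and Sec61b rose (7.74% of genes were called higher) and Trib3 fell (6.98% lower). The difference was above 0 for 26 of the 30 with either set of arrays. Its median was 0.68 without the 2 arrays (0.04 over all genes) and 0.35 with them (0.02 over all genes). Groups did not overlap for 8 genes that were higher and 1 that was lower, against 12.6% and 11.2% of genes; with all 6 TSP arrays they did not overlap for Calr, P4hb and Syvn1, all higher, against 1.49%. Calr, Dnajb11, Sdf2l1, Creld2, Syvn1, Ddit3 and Sec61b passed in both comparisons of side with main population.

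With TSP 1 and TSP 2 left out, each of the other 16 arrays was also left out in turn. Calr, Syvn1 and Ddit3 stayed called in CSP against CMP in all 16 fits, and Calr, P4hb, Dnajb11, Sdf2l1 and Syvn1 in TSP against TMP. In CSP against CMP the call of Sec61b ended without CMP 1 and that of Xbp1 without CMP 2 or CMP 3. The calls of Dnajb11 (CSP 1, CSP 5, CSP 6, CMP 1, CMP 2, CMP 3), Sdf2l1 (CSP 1 to CSP 4, CMP 1, CMP 2, TMP 1), Creld2 (CSP 1 to CSP 4, CMP 1, CMP 2) and Herpud1 (CSP 1 to CSP 3, CMP 2, CMP 3) each ended without any one of the arrays named. In TSP against TMP the same held for Sec61b (TMP 1, TMP 2), Ddit3 (TSP 6, TMP 1, TMP 2), Trib3 (TSP 4 to TSP 6, TMP 2, TMP 3) and Creld2 (TSP 3, TSP 4, TSP 6, TMP 1, TMP 2, CMP 2). Genes not called with the other 16 arrays in the fit could pass in these, besides Pdia6, Atf6 and Edem1 below: in CSP against CMP Hspa5 (without CSP 6 or CMP 1), Asns (CSP 1 or CMP 3) and Trib3 (CSP 6), and in TSP against TMP Hspa5 (TSP 5) and Herpud1 (CSP 6 or TMP 1).

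**Figure D2:**
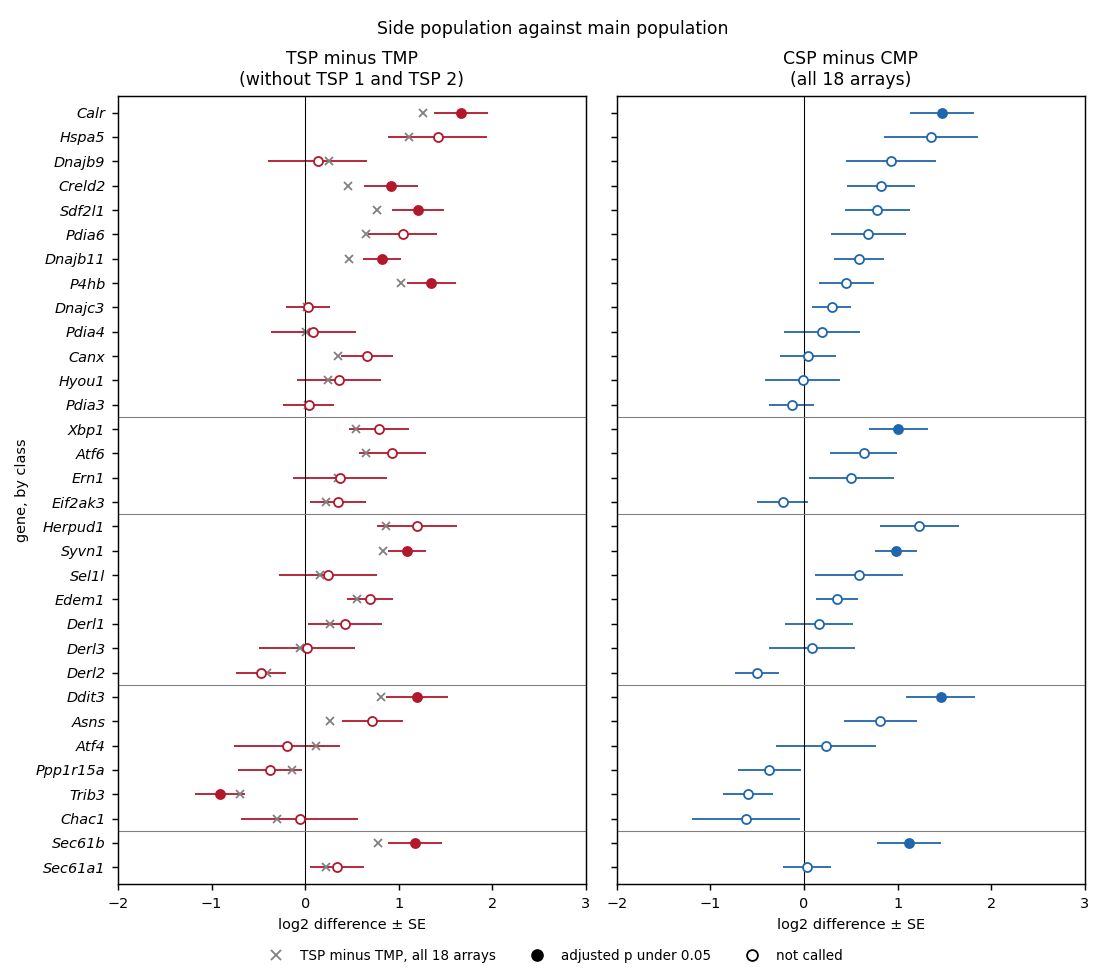
Log2 difference with its standard error for each gene, TSP minus TMP on the left (points without TSP 1 and TSP 2, grey crosses with all arrays) and CSP minus CMP on the right; filled points passed an adjusted p of 0.05. Calr is at 1.66 on the left and 1.48 on the right, and Trib3 lies below 0 in both.

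Among the chaperones, Calr, the calcium-binding lectin chaperone calreticulin, differed most. Its level in CSP lay between 0.43 and 1.77 (median 1.15), against -0.18, -0.67 and -0.21 in CMP. Every CSP array was above every CMP array. The means were 1.12 ± 0.44 in CSP and -0.35 ± 0.28 in CMP (SD, n = 6 and n = 3), a difference of 1.48 ± 0.34 (SE), or 2.78-fold (limma adjusted p = 0.0107; 0.0629 without CMP 2). A second, dimmer probe gave 0.05 for CSP minus CMP and -0.05 for TSP minus TMP without TSP 1 and TSP 2. Averaged over both probes, the CSP difference was 0.76 (limma adjusted p = 0.0269). In the operated thyroids TSP 3 to TSP 6 gave 0.94, 0.91, 1.1 and 1.56 and TSP 1 and TSP 2 gave -0.13 and -0.05, against -0.43, -0.91 and -0.27 in TMP. All 6 TSP arrays were above the TMP arrays, and TSP 1 and TSP 2 were the lowest of them. The difference was 1.66 ± 0.29 without the 2 arrays (3.17-fold, limma adjusted p = 0.000697) and 1.26 ± 0.34 with them (limma adjusted p = 0.250). On slide 4 alone, CSP was 1.89 above CMP (2 arrays against 1), and on slide 5 TSP was 1.60 above TMP.

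Hspa5, the abundant chaperone BiP that also holds the sensors inactive, had a large difference and a wide spread. Its levels in CSP were 2.10, 2.74, 1.07, 1.40, 0.90 and 0.65, against 0.97, 0.30 and -0.91 in CMP. CMP 1 lay above CSP 5 and CSP 6, so the groups overlapped. The difference of 1.35 ± 0.50 (2.56-fold) did not pass (limma adjusted p = 0.0779). TSP 1 to TSP 6 gave 0.67, 0.54, 1.59, 2.28, 0.58 and 1.70, against 0.60, 0.42 and -0.65 in TMP. Without TSP 1 and TSP 2 the difference was 1.42 ± 0.53 (limma adjusted p = 0.0872), and it passed with slide as a block (1.65, limma adjusted p = 0.00842). Within slides the difference was 0.47 between CSP and CMP on slide 4 and 1.79 between TSP and TMP on slide 5.

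P4hb, a protein disulfide isomerase, passed only in the operated thyroids. It was at 0.52, 1.27, 0.20 and 0.73 on TSP 3 to TSP 6 and at -0.32 and -0.27 on TSP 1 and TSP 2, against -0.58, -0.73 and -0.70 in TMP. All 6 TSP arrays lay above the 3 TMP arrays. The difference was 1.35 ± 0.26 without the 2 arrays (2.55-fold, limma adjusted p = 0.00163). In CSP it lay between -0.49 and 0.27 (median -0.22), against -0.41, -0.81 and -0.65 in CMP, and the difference of 0.45 ± 0.29 did not pass (limma adjusted p = 0.335). The difference between these differences was 0.89 ± 0.36 without the 2 arrays (limma adjusted p = 1), so P4hb was not shown to differ between operated and unoperated thyroids.

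Dnajb11, a partner of Hspa5, had levels of 0.73 to 1.07 in CSP (median 1.00), against 0.41, 0.20 and 0.45 in CMP. It was at 1.18, 1.38, 0.80 and 1.11 on TSP 3 to TSP 6 and at 0.13 and -0.01 on TSP 1 and TSP 2, against 0.33, 0.28 and 0.27 in TMP. Leaving out TSP 1 and TSP 2, neither pair of groups overlapped. The differences were then 0.59 in CSP (limma adjusted p = 0.0330; 0.144 with all arrays) and 0.82 ± 0.20 in TSP (limma adjusted p = 0.00887).

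Sdf2l1, a component of chaperone complexes of the endoplasmic reticulum, lay between -0.88 and -0.02 in CSP (median -0.56), against -1.44, -1.63 and -0.98 in CMP. It was at -0.05, 0.11, -0.84 and -0.32 on TSP 3 to TSP 6 and at -1.62 and -1.54 on TSP 1 and TSP 2, against -1.52, -1.75 and -1.15 in TMP. CSP did not overlap CMP, and TSP 3 to TSP 6 did not overlap TMP. Without the 2 arrays the differences were 0.78 in CSP (limma adjusted p = 0.0409; 0.140 with all arrays) and 1.20 ± 0.28 in TSP (limma adjusted p = 0.00611).

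Creld2, a secreted protein induced by endoplasmic reticulum stress, lay between 0.77 and 1.20 in CSP (median 1.01), against -0.33, 0.17 and 0.72 in CMP. It was at 1.18, 1.59, 0.55 and 1.45 on TSP 3 to TSP 6 and at -0.23 and -0.16 on TSP 1 and TSP 2, against -0.06, 0.21 and 0.66 in TMP. CSP did not overlap CMP, while TMP 3 lay above TSP 5. Without TSP 1 and TSP 2 the differences were 0.83 in CSP (limma adjusted p = 0.0372; 0.139 with all arrays) and 0.92 ± 0.29 in TSP (limma adjusted p = 0.0390).

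Of the other 7 chaperones none passed in the fit of 4 group means, with all arrays or without the 2. Canx passed in TSP without the 2 arrays with slide as a block (1.06, limma adjusted p = 0.0107) and Pdia6 when TSP 5 was also left out. The disulfide isomerase Pdia6 was 0.69 ± 0.40 higher in CSP than in CMP (limma adjusted p = 0.272) and 1.04 ± 0.37 higher in TSP than in TMP without the 2 arrays (limma adjusted p = 0.0691). Dnajc3, a co-chaperone and inhibitor of Eif2ak3, lay between 1.55 and 2.19 in CSP and between 1.36 and 1.54 in CMP, without overlap but with a difference of only 0.30 ± 0.21 (limma adjusted p = 0.373). Dnajb9, a co-chaperone that restrains Ern1, was at 0.59 to 2.19 in CSP, against -0.66 to 1.35 in CMP, with a difference of 0.93 ± 0.48 (limma adjusted p = 0.210). The disulfide isomerases Pdia3 and Pdia4, the lectin chaperone Canx and the stress chaperone Hyou1 had differences between -0.13 (Pdia3) and 0.19 (Pdia4) in CSP. Canx was at 0.66 ± 0.28 in TSP minus TMP without the 2 arrays (limma adjusted p = 0.130), against 0.04 in CSP minus CMP. Dimmer probes of Canx went the other way in that TSP comparison, at -0.31 and -0.10. Over the 13 chaperones, 11 differences were above 0 in CSP with a median of 0.59, and all 13 were above 0 in TSP with a median of 0.82 without the 2 arrays.

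**Figure D3:**
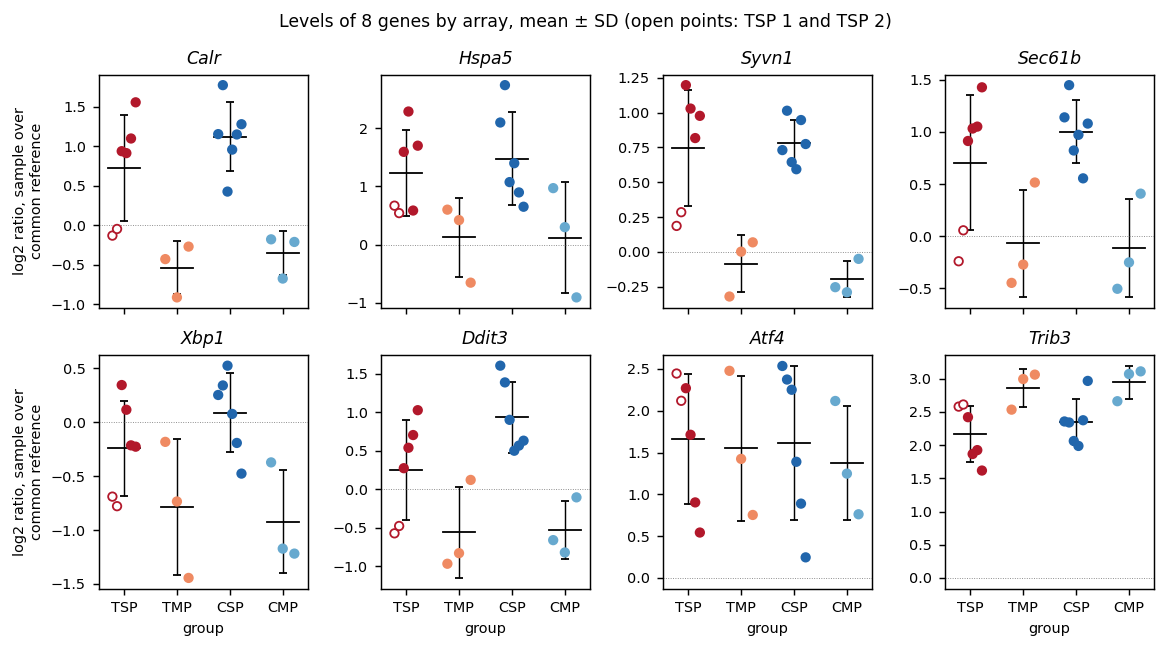
Log2 ratio of sample over the reference pool for 8 genes on every array of TSP, TMP, CSP and CMP, with the group mean and SD as lines and TSP 1 and TSP 2 as open points. For Calr and Syvn1 all CSP points lie above all CMP points, for Trib3 the side population means lie below those of the main population, and the groups overlap widely for Atf4.

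Among the sensors, the factor Xbp1 was higher in CSP. The array reads the total of its spliced and unspliced transcripts. Its level was -0.48 to 0.52 in CSP (median 0.17), against -0.37, -1.17 and -1.22 in CMP. CMP 1 lay above the lowest CSP array. The means were 0.09 ± 0.37 in CSP and -0.92 ± 0.48 in CMP (SD, n = 6 and n = 3), a difference of 1.01 ± 0.32, or 2.01-fold (limma adjusted p = 0.0385). This call was lost when any of 6 arrays was left out alone (CSP 1, CSP 2, CSP 3, CSP 4, CMP 2 or CMP 3), with adjusted p values up to 0.159. In TSP it lay between -0.78 and 0.34 (median -0.22), against -0.18, -0.74 and -1.44 in TMP, and without the 2 arrays the difference of 0.79 ± 0.32 did not pass (limma adjusted p = 0.119).

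Of the 3 membrane sensors none passed in the fit of 4 group means, with all arrays or without the 2. Eif2ak3 passed in TSP without the 2 arrays with slide as a block (0.73, limma adjusted p = 0.0499) and Atf6 when CSP 4 or TMP 3 was left out besides them. Atf6, which is cut in the Golgi to release a transcription factor, lay between -0.03 and 1.48 in CSP (median 1.15), against 0.27, 0.13 and 0.66 in CMP. It lay between 0.06 and 1.46 in TSP (median 0.76), against -0.62, 0.00 and 0.83 in TMP. All groups overlapped, and the differences were 0.64 ± 0.36 in CSP (limma adjusted p = 0.255) and 0.93 ± 0.36 in TSP without the 2 arrays (limma adjusted p = 0.0997). Ern1, the nuclease that splices Xbp1, was near background on several arrays, and 1 CSP array was at 3.10 while the CSP median was 0.72. Eif2ak3, the kinase PERK, had a difference of -0.23 ± 0.28 in CSP (limma adjusted p = 0.639) and of 0.35 in TSP without the 2 arrays.

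Among the degradation genes, Syvn1, the ubiquitin ligase Hrd1 of the endoplasmic reticulum membrane, rose in the side population with little spread. Its level was 0.59 to 1.01 in CSP (median 0.75), against -0.25, -0.29 and -0.05 in CMP. TSP 3 to TSP 6 gave 1.20, 1.03, 0.82 and 0.98 and TSP 1 and TSP 2 gave 0.19 and 0.28, against -0.32, 0.00 and 0.07 in TMP. No side population array overlapped its main population. The difference was 0.98 ± 0.23 in CSP (1.97-fold, limma adjusted p = 0.0106; 0.0559 without CMP 2), and it did not pass when averaged over the gene's probes (0.61). In TSP without the 2 arrays it was 1.09 ± 0.20 (2.13-fold, limma adjusted p = 0.00121), and with all arrays 0.83 (limma adjusted p = 0.250). Within slides it was 1.15 on slide 4 (CSP minus CMP) and 0.83 on slide 5 (TSP minus TMP).

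Herpud1, a membrane protein that assembles the Syvn1 complex, lay between -1.15 and 0.88 in CSP (median -0.05), against -0.67, -1.27 and -2.0 in CMP. It lay between -1.13 and 0.11 in TSP (median -0.29), against -0.57, -1.37 and -1.95 in TMP. CSP overlapped CMP. The difference was 1.23 ± 0.42 (2.35-fold) with limma adjusted p = 0.0569 with all arrays and 0.0350 without TSP 1 and TSP 2. In TSP without those arrays it was 1.20 ± 0.43 and did not pass (limma adjusted p = 0.0719), although TSP 3 to TSP 6 did not overlap TMP.

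The other degradation genes did not pass in the fit of 4 group means, with all arrays or without the 2. Edem1 passed in TSP without the 2 arrays with slide as a block (0.65, limma adjusted p = 0.0362) and when TMP 1 was also left out. Edem1, which draws misfolded glycoproteins toward degradation, differed by 0.35 ± 0.23 in CSP and by 0.69 ± 0.25 in TSP without the 2 arrays (limma adjusted p = 0.335 and 0.0705). The derlins, membrane proteins of the export channel, differed by 0.16 (Derl1), -0.50 ± 0.23 (Derl2, limma adjusted p = 0.164) and 0.09 (Derl3) in CSP. Derl2 was also below 0 in TSP, at -0.47 without the 2 arrays. Sel1l, the adaptor of Syvn1, was at 0.59 ± 0.47 in CSP minus CMP (limma adjusted p = 0.445). Over the 6 degradation genes, 5 differences were above 0 in each comparison, with medians of 0.26 in CSP and 0.56 in TSP without the 2 arrays.

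The Atf4 branch was mixed in direction. Ddit3, the stress factor CHOP, rose in CSP, where it lay between 0.50 and 1.60 (median 0.76), against -0.66, -0.82 and -0.11 in CMP. The groups did not overlap. The means were 0.93 ± 0.46 in CSP and -0.53 ± 0.38 in CMP (SD, n = 6 and n = 3), a difference of 1.46 ± 0.37, or 2.75-fold (limma adjusted p = 0.0140; 0.0641 without CMP 1 and 0.0763 without CMP 2). TSP 1 to TSP 6 gave -0.57, -0.48, 0.27, 0.54, 0.70 and 1.02, against -0.97, -0.83 and 0.12 in TMP. TSP 3 to TSP 6 lay above the TMP arrays and TSP 1 and TSP 2 lay below TMP 3. The difference was 1.19 ± 0.33 without the 2 arrays (2.29-fold, limma adjusted p = 0.0198) and 0.81 with them (limma adjusted p = 0.343). The gene is read by a probe at chr10:126796858-126797161 on the plus strand (mm7, the build of the scanner files), a span longer than the probe.

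Trib3, a pseudokinase induced through Atf4 and Ddit3, went the other way. It lay between 1.99 and 2.97 in CSP (median 2.35), against 2.66, 3.07 and 3.11 in CMP. TSP 1 to TSP 6 gave 2.58, 2.61, 2.42, 1.87, 1.93 and 1.62, against 2.54, 3.00 and 3.06 in TMP. TSP 3 to TSP 6 were below all TMP arrays, while CSP overlapped CMP. In TSP without the 2 arrays it fell by 0.91 (difference -0.91 ± 0.27, 1.87-fold, limma adjusted p = 0.0286). With all arrays the difference was -0.69 (limma adjusted p = 0.270), and 0.032 after scale normalization. In CSP the difference of -0.60 ± 0.26 did not pass (limma adjusted p = 0.135). It passed with slide as a block (-0.86, limma adjusted p = 0.0296) and after median centring (-1.12, limma adjusted p = 0.0304). Averaged over the gene's probes it also passed (-1.11, limma adjusted p = 0.0107). A second probe of Trib3 gave -1.63 for CSP minus CMP.

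Atf4 itself was not called in either comparison in the fit of 4 group means, with all arrays or without the 2. It lay between 0.25 and 2.54 in CSP (median 1.82), against 2.12, 1.25 and 0.76 in CMP, and between 0.54 and 2.44 in TSP (median 1.92), against 2.48, 1.42 and 0.75 in TMP. The arrays of slide 1 lay between 2.12 and 2.54 and those of slide 5 between 0.54 and 0.90, whatever their group. The spread was wider on slide 3 (1.39 to 2.27) and slide 4 (0.25 to 1.42). On slide 4 CSP 5 and CSP 6 (0.89 and 0.25) lay below CMP 2 and TMP 2 (1.25 and 1.42). The difference was 0.24 ± 0.54 in CSP (limma adjusted p = 0.816), turned negative with slide as a block (-0.39) and was -0.68 within slide 4. In TSP without the 2 arrays it was -0.19 ± 0.57 (limma adjusted p = 0.882).

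Asns, the asparagine synthetase that Atf4 induces, lay between 1.42 and 2.58 in CSP (median 1.85), against 0.73, 1.05 and 1.57 in CMP. It lay between 0.39 and 2.40 in TSP (median 1.61), against 1.39, 0.81 and 1.59 in TMP. Both pairs of groups overlapped. The difference of 0.82 ± 0.39 in CSP did not pass (limma adjusted p = 0.172) but was 1.52 ± 0.23 with slide as a block (limma adjusted p = 0.00149) and 1.40 within slide 4. Chac1, an enzyme that degrades glutathione, lay between -0.71 and 3.06 in CSP, against 2.01 to 2.52 in CMP, a difference of -0.62 ± 0.58 (limma adjusted p = 0.521). Ppp1r15a, the phosphatase subunit that ends the translation block, differed by -0.37 ± 0.33 (limma adjusted p = 0.507). Over the 5 genes of the branch, 3 differences were above 0 in CSP with a median of 0.24, and 2 in TSP with a median of -0.06 without the 2 arrays.

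Of the 2 translocon subunits, Sec61b, the small subunit of the channel that admits new proteins, rose in CSP. It lay between 0.55 and 1.45 (median 1.03), against -0.51, -0.25 and 0.41 in CMP. The groups did not overlap. The difference was 1.12 ± 0.34 (2.17-fold, limma adjusted p = 0.0346). It did not pass when CMP 1, CMP 2, CSP 1 or CSP 2 was left out alone (limma adjusted p = 0.171, 0.126, 0.0591 and 0.0658). In TSP it lay between -0.24 and 1.43 (median 0.97), against -0.45, -0.27 and 0.51 in TMP, with a difference of 1.18 ± 0.29 without the 2 arrays (limma adjusted p = 0.00925). Sec61a1, the subunit that forms the pore, lay between -0.24 and 0.69 in CSP (median 0.08), against -0.11, -0.07 and 0.50 in CMP. Its difference was 0.03 ± 0.26 in CSP (limma adjusted p = 0.960) and 0.34 ± 0.28 in TSP without the 2 arrays (limma adjusted p = 0.517).

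Set side by side, the direction was more even among the 13 chaperones than in the 5 genes of the Atf4 branch. In CSP the wider list of other genes below did not show this (18 of 25 Atf4 branch genes and 13 of 22 folding genes above 0). In TSP without the 2 arrays that list had 18 of 25 and 18 of 22 above 0. Its median was the higher one over the Atf4 branch there too, at 0.50 against 0.44. In TSP without the 2 arrays 5 of 13 chaperones rose and none fell, and in the Atf4 branch Ddit3 rose and Trib3 fell out of 5, while 7.74% of all genes were called higher and 6.98% lower. With all arrays 0 of 13, 0 of 5 and 0% of all genes were called, and 13 of 13 and 3 of 5 differences were above 0. The median over the chaperones on an array lay between 0.41 and 1.18 on TSP 3 to TSP 6 and at -0.13 and -0.05 on TSP 1 and TSP 2, against -0.27 to 0.15 in TMP. It lay between 0.59 and 0.96 in CSP, against -0.21 to 0.17 in CMP. The medians of the Atf4 branch overlapped, at 0.92 to 1.93 in TSP against 1.17 to 1.77 in TMP, and at 1.39 to 2.33 in CSP against 1.25 to 2.08 in CMP. Those of the degradation genes were -0.72 to 0.06 in TSP against -0.73 to -0.44 in TMP, and -0.87 to 0.24 in CSP against -0.78 to -0.46 in CMP. Within slide 4 the median for CSP minus CMP was 0.62 over the Atf4 branch and 0.44 over the chaperones. Within slide 5 it was 0.01 and 0.68 for TSP minus TMP. The difference between classes was not tested.

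**Figure D4:**
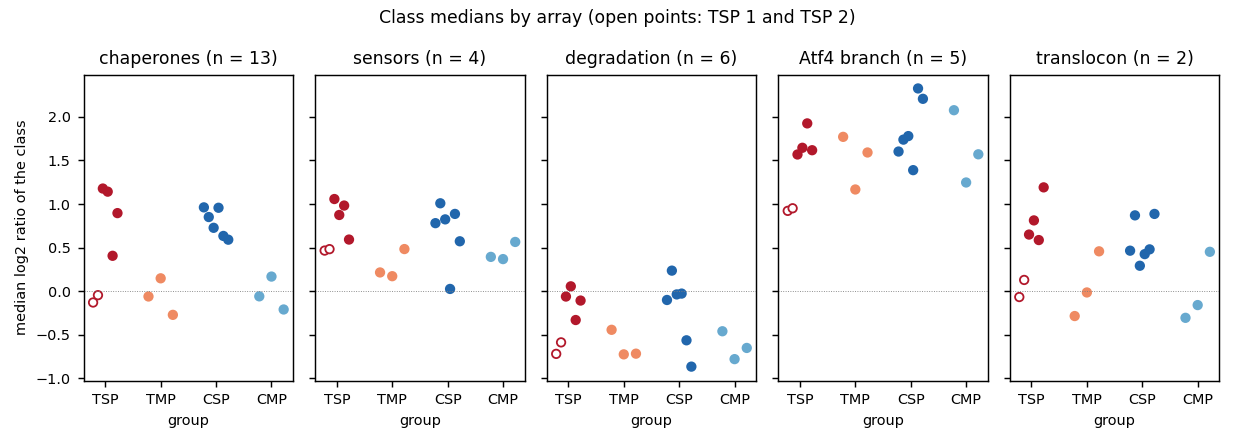
Median log2 ratio over the genes of each class on every array, by group (TSP, TMP, CSP, CMP). The chaperone medians of CSP (0.59 to 0.96) and of TSP 3 to TSP 6 (0.41 to 1.18) lie above those of CMP and TMP, whereas the Atf4 branch overlaps between all groups.

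Grouped by promoter, the 10 genes with either form of the ER stress response element all had a difference above 0 in CSP (0.04 to 1.48, median 0.76, against 0.06 over all genes), and 2 of them were called, against 14.8% of all genes. Of the 16 genes without it that are in the promoter table, 11 were above 0 with a median of 0.40, and 3 were called. In TSP without the 2 arrays the element group had a median of 0.98 with 4 of 10 called, against 0.36 with 5 of 16 called in the group without it, Trib3 being the one lower. Over all genes the median was 0.04 and 14.7% were called. With all TSP arrays the medians were 0.56 and 0.26, and 0 of 10 and 0 of 16 were called. The element was thus present both in called genes (Calr, Syvn1) and in Canx and Derl3, which were not called in these 2 fits. Of the 29 other genes with the first form, 8 were measured and 1, Hsp90b1, rose in CSP. The difference was above 0 for 4 of the 8, with a median of 0.17. The Atf4 core stood in genes of opposite sign in CSP minus CMP. These were Asns (0.82), Herpud1 (1.23), Trib3 (-0.60) and Chac1 (-0.62), none of them called in the fit of 4 group means with all arrays. In TSP minus TMP without the 2 arrays Chac1 was at -0.06. Of 317 other measured genes with the core 15.1% were called between CSP and CMP, against 14.8% of all genes. Their median was 0.09, against 0.06 over all genes.

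With slide as a block 7 of the 30 were called between CSP and CMP, against 28.2% of all genes: Asns rose and Trib3 fell beside the 5 genes above. Leaving out TSP 1 and TSP 2, this fit called 6, against 21.2%. For TSP against TMP it called 0 of the 30 with all arrays, against 1.1% of genes, where 226 genes passed and the smallest adjusted p among the 30 was 0.0566 (Calr, limma). Without the 2 arrays it called 15 of the 30, 14 higher and 1 lower, against 15.9% of genes. Hspa5, Canx, Xbp1, Eif2ak3, Herpud1, Edem1 and Asns joined those called higher above, of which Creld2 no longer passed. Within slide 4 the median of the 30 was 0.48 for CSP minus CMP (2 arrays against 1, all genes at 0.15), and within slide 5 it was 0.58 for TSP minus TMP (2 against 1, all genes at 0.05). These are values with no test, and no other slide holds both populations of one condition.

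Comparing TSP with CSP and TMP with CMP asks whether surgery changed these genes. In TSP against CSP 0 of the 30 and 0% of all genes passed in limma, with 3 of the 30 and 1875 genes at an unadjusted p under 0.05. With TSP 1 and TSP 2 left out it was again 0, with 3 of the 30 and 710 genes unadjusted. The differences with an unadjusted p under 0.05 without the 2 arrays were 0.85 ± 0.22 for P4hb, 0.63 ± 0.26 for Eif2ak3 and 0.46 ± 0.21 for Edem1 (limma adjusted p = 1 each). With slide as a block, Ddit3 fell in TSP (difference -1.04 ± 0.26, limma adjusted p = 0.0406), the only call of the 30 against 4.64% of genes, and without the 2 arrays none passed, against 0.088%. The slides differed: the median of the 30 was -0.77 on slide 1, where the TSP arrays are TSP 1 and TSP 2, and 0.22 on slide 3. On slide 1 Ddit3 was at -2.02, Hspa5 at -1.81 and Calr at -1.55, and on slide 3 Eif2ak3 was at 1.36, P4hb at 1.21 and Ddit3 at -0.29.

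In TMP against CMP 0 of the 30 and 0% of all genes passed in limma, with 0 of the 30 and 24 genes at an unadjusted p under 0.05. TMP and CMP arrays of one number shared a slide, and a fit of the 6 main population arrays with the number as a block called 6 genes (0.0293%) and 0 of the 30, 2 of them at an unadjusted p under 0.05. Those 2 were Chac1 (-0.48 ± 0.17, limma adjusted p = 0.707) and Hyou1 (-0.42 ± 0.17, limma adjusted p = 0.806). The median of the 30 was 0.02 over all arrays and 0.02, 0.01 and -0.04 within slides 2, 4 and 5. The test of whether the surgery difference itself differed between the populations called 0 of the 30 and 0% of genes with all arrays and without the 2 (limma; 0 and 1 of the 30 and 221 and 127 genes at an unadjusted p under 0.05).

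**Figure D5:**
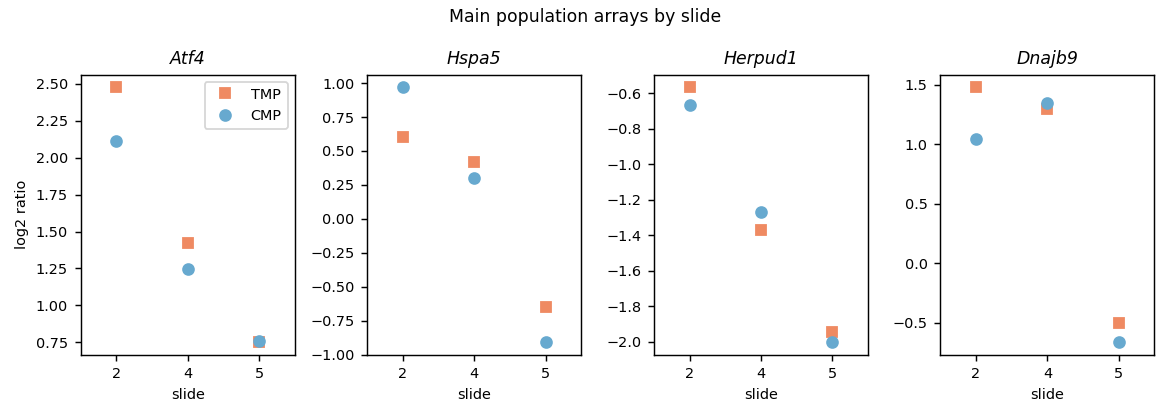
Log2 ratio of Atf4, Hspa5, Herpud1 and Dnajb9 on the main population arrays of slides 2, 4 and 5, TMP as squares and CMP as circles. On each slide TMP and CMP lie within 0.43 of each other, while the slide means of Atf4 are 2.30, 1.34 and 0.76.

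In the main population the slides differed more than the groups. For Atf4 the slide means spanned 1.54 and the largest difference between TMP and CMP on a slide was 0.36; for Hspa5 these were 1.56 and 0.37, and for Dnajb9 1.90 and 0.43. Herpud1 spanned 1.36 with a largest difference of 0.10. The span was the larger of the 2 for 23 of the 30 genes (76.7%), near the 69.4% of all genes, so it is no property of these genes. Each of these slides held the TMP and CMP arrays of a single number, so slide and biological replicate cannot be told apart here. What differed between the slides besides the array was not tested.

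Probes of one gene did not always move together. The used probe of Calr (chr8:83428403-83428462, minus strand, mm7) gave 1.48 for CSP minus CMP, and its dimmer one, described above, lies at chr8:83430740-83430799. For Syvn1 the used probe (chr19:5948374-5948433, plus strand) gave 0.98, and one that was well above background on only 3 arrays gave 0.23. The 4 probes of Derl1 gave 0.16 (used), 0.06, 0.80 and -0.28, and those of Pdia6 gave 0.69 (used), 0.80, -0.41 and 0.26. In TSP minus TMP without TSP 1 and TSP 2 those of Pdia6 gave 1.04 (used), 1.25, -0.94 and -0.17. The probes of Canx, each well above background on all 18 arrays, gave 0.04 (used), -0.54 and -0.20 for CSP minus CMP. For TSP minus TMP without the 2 arrays they gave 0.66 (used), -0.31 and -0.10.

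A list of 119 other genes of protein folding, degradation, translocation and the stress response, 116 of them measured, was followed for context. In CSP 9 rose and 5 fell (12.1%, against 14.8% of all genes), and the median was 0.19. The factor Cebpb (2.81 ± 0.83), the cystine transporter Slc7a11 (2.69 ± 0.81), the stress-induced secreted factor Manf (1.88 ± 0.43, listed as Armet), the prolyl isomerase Fkbp14 (1.67 ± 0.50) and the retrieval receptor Kdelr3 (1.60 ± 0.36) had the largest rises. The signal peptidase subunit Spcs3 (-3.09 ± 0.78), Wfs1 (-2.35 ± 0.40), the secreted glycoprotein Stc2 (-2.06 ± 0.45), the oxidase Ero1lb (-1.34 ± 0.40) and the factor Creb3 (-1.02 ± 0.21) fell (limma adjusted p from 0.00797 to 0.0327 for the 10). By role, 4 of 22 folding genes rose and 1 fell, and 3 of 25 genes of the Atf4 branch rose and 1 fell. None of 19 degradation genes passed, 2 of 16 sensor genes fell, and 2 of 34 translocation genes rose and 1 fell. The difference was above 0 for 18 of the 25 Atf4 branch genes (median 0.48) and 13 of the 22 folding genes (median 0.24). Without TSP 1 and TSP 2, TSP minus TMP was above 0 for 18 of 25 (median 0.50) and 18 of 22 (median 0.44). In TSP without the 2 arrays 14 rose and 6 fell (17.2%, against 14.7%), among them Manf at 2.07 ± 0.28 (limma adjusted p = 6.97e-05), the collagen chaperone Serpinh1 at 2.01 ± 0.40 and Fkbp14 at 1.91 ± 0.31, and Spcs3 at -2.60 ± 0.42; with all arrays none passed.

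Markers of cell types moved with the same comparisons. Of 13 thyroid follicular markers 8 fell in CSP, and their mean log2 ratio lay between -0.10 and 1.30 in CSP, against 2.02 to 2.46 in CMP; all 10 epithelial markers fell. All 10 endothelial markers rose, at 1.03 to 3.05 in CSP against -1.75 to -1.1 in CMP, and 8 of 10 fibroblast markers rose, at -1.65 to 0.71 against -4.08 to -3.33. TSP 3 to TSP 6 followed this against TMP, with 8 of 13 follicular and 10 of 10 epithelial markers lower and 10 of 10 endothelial and 10 of 10 fibroblast markers higher. On all CSP arrays 2 of the 13 follicular markers were well above background, against 11 on all CMP arrays. Plasma and B cells, which are rich in endoplasmic reticulum, had 1 of 9 measured markers higher in CSP. Their mean was -1.76 to -1.08 against -2.12 to -1.25 in CMP, and 3 of the 9 were well above background on all CSP arrays. Of 5 measured C cell markers 1 was called higher in CSP. Their mean was 0.87 to 2.81 against 0.36 to 0.47 in CMP, without overlap. On TSP 3 to TSP 6 it was -0.40 to 2.40, against 0.49 to 0.55 in TMP, and 0 were called. Of 10 macrophage and leukocyte markers 1 rose and 2 fell in CSP, and 0 of 3 measured erythroid markers passed. Each array read RNA of many cells, so a change in the kinds of cells and a change in RNA per cell cannot be told apart, and the part of these markers in the results was not tested.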

How the data were processed

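RNA of sorted thyroid cells was measured on 18 two-colour Agilent arrays, 45018 spots each, with no dye swap. The scanner files deposited by the authors hold raw intensity and background per channel and processed intensity, made with Feature Extraction (8.5.1.1 per the submitters' processing notes, 9.5.1.1 per the file headers). The deposited value table holds log2 ratios by the authors, whose normalization is not given in the sources used here and whose column medians run from 0.127 to 0.302; only 10 of its 18 columns fitted the scanner file of their own array best, so it was used as an alternative only. Raw signals were background corrected (normexp, offset 50) and loess normalized in limma 3.58.1 (R 4.3.3). Control spots had weight 0, spots with outlier flags were left out, and spots of a probe were averaged. For each gene name the brightest probe was kept, out of those clearly above the Cy5 background on 3 or more arrays.

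A limma fit of 4 group means gave moderated tests, Benjamini-Hochberg adjusted over 20455 genes. It was also run on simulated data with independent noise on each array. That simulation held no slide or replicate effect, so it does not cover such effects in these arrays. TMP and CMP arrays of one number deviated together (r from 0.664 to 0.807 over 3 pairs, which share slides). Other groups did not pair by number. Alternatives were slide or replicate number as a block, the processed signals of the scanner software, the authors' table and other normalizations. Other filters, the mean over the probes of a gene and arrays left out were tried as well. Values on each array are given for genes called in any comparison (at most 14), the 2 of each class with the largest CSP minus CMP difference, and Hspa5, Atf4, Xbp1 and Ddit3. Other pathway genes are named up to 5 per direction. Members and lists were chosen with earlier results of these data known.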

Additional observations from a re-analysis of the deposited data

Results flagged for a closer look

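Among the 64 groups of 6 arrays tested (CSP and TSP for each of the 32 genes), 2 held an array far from the other 5, and chance flags about 1 in 20 such groups. Dnajc3 was at 2.19 on CSP 6, where the nearest of the other CSP arrays was at 1.76 and the lowest at 1.55. Atf6 was at -0.027 on CSP 4, where the nearest was at 1.02 and the highest at 1.48. Neither gene was called between side and main population in the fit of 4 group means, with all arrays or without TSP 1 and TSP 2. When CSP 4 was left out besides TSP 1 and TSP 2, Atf6 was called in TSP against TMP, as it was when TMP 3 was.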

How the results depend on the processing

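Of the 30 genes, 5 were called between CSP and CMP. The count was 3 with a replicate block, against 9.77% of all genes (the numbers do not pair these groups). It was 9 without TSP 1 and TSP 2 (19.2% of genes). After median centring it was 3 (2 higher, 1 lower, against 12.9% of genes), and after scale normalization 0 (1.93% of genes). When 1 array was left out it ran from 0 (without CMP 2, 2.59% of genes) to 6 (without CSP 6, 15.5% of genes). It was within 1.5 times with slide as a block (7), the processed signals (4), the authors' table (4), other filters (5 and 5) and the mean over probes (6). In these settings 9.76% (no filter on dim probes) to 28.2% (slide as a block) of genes were called. With the mean over probes Trib3 was called lower and Syvn1 was not called. For TSP against TMP, with 0 calls, the count was 9 without TSP 1 and TSP 2 (14.7% of genes). With slide as a block as well (chosen after seeing the data) it was 15 (15.9% of genes). With 1 array left out it was 0 to 3, the 3 being without TSP 1 (2.45% of genes) or without TSP 2 (2.93% of genes). On top of leaving out both, each further array was left out (chosen after seeing the data). For CSP against CMP this gave 4 calls (without CMP 2, with 2688 of 20455 genes called) to 10 (without CSP 6, 4024 genes). For TSP against TMP it gave 5 (without TMP 2, 2044 genes) to 10 (2564 to 3143 genes). For TSP against CSP slide as a block gave 1, against 4.64% of genes. The median of the 30 for TSP minus CSP, -0.16, was 0.32 after scale normalization, -0.77 within slide 1, 0.17 after median centring and 0.08 without TSP 1 and TSP 2.

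Directions turned for Atf4 in CSP minus CMP (-0.39 with slide as a block, -0.49 without TSP 1 and TSP 2 as well, -0.0076 after median centring, -0.068 to 0.61 with 1 array left out), for Sec61a1 (-0.15 with the replicate block, -0.022 after median centring, -0.15 over all probes, -0.082 to 0.22 with 1 array left out), for Asns in TSP minus TMP (-0.21 with the replicate block) and for Trib3 (0.032 after scale normalization). With the replicate block Atf4 passed at 0.93 (limma adjusted p = 0.0464). The cause was not tested. Over all genes CSP against CMP had 3030 calls, 51.4% of them higher. There were 5759 with slide as a block (61.8% higher), 1999 with the replicate block, 394 after scale normalization (38.3% higher), 1122 without CMP 1 and 529 without CMP 2; median centring gave 32.8% higher and moved the median of all genes to -0.08, against 0.06, and the median of the 30 to 0.32. The 3 arrays of CMP and of TMP, and the raised background of slides 1 and 5, limit what these data resolve.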
